A study of Mus musculus with 12 samples.

Results

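Genes for the SR proteins, the heterogeneous nuclear ribonucleoproteins (hnRNPs) and the protein parts of the small nuclear ribonucleoproteins (snRNPs) were followed in mouse follicular B cells after stimulation of the antigen receptor. Members were all genes with 1 gene symbol on the array whose symbol begins with Srsf plus a number, with Hnrnp or with Snrp, which gave 38 of 18193 genes: 10 SR genes, 19 hnRNP genes and 9 snRNP genes. Each gene was read through its brightest probe set over all 12 arrays, a probe set being the group of short probes that measures 1 transcript. Relatives whose probe sets carry several symbols, among them those for Snrpd1, Snrpd2, Snrpa and Hnrnpa3, fall outside this choice. Most members were bright, 34 of 38 lying in the bright genes, meaning the 1 in 3 of all genes with the highest mean signal.

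These proteins act on newly made RNA. Small nuclear RNAs bound by a ring of Sm proteins form the U snRNPs, which recognise splice sites and build the spliceosome that cuts introns out. SR proteins bind exons through RNA recognition motifs, carry a tail rich in serine and arginine that kinases phosphorylate, and as a rule promote the use of nearby splice sites. HnRNPs coat nascent transcripts, often act against SR proteins at the same exons, and also take part in RNA export, stability and translation. Lymphocytes change the splicing of many transcripts when they are activated, and the switch between membrane and secreted immunoglobulin in B cells is a textbook case of regulated RNA processing.

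The cells were follicular B cells (B220+, CD23 high, CD21 low) sorted from the spleens of C57Bl/6 mice aged 6 weeks, either wild type (WT) or IkL/L. IkL is an allele of Ikzf1, the gene of the zinc finger protein Ikaros, that holds a lacZ insertion and makes less Ikaros. IkL/L mice carry it on both chromosomes from the germ line, so that their B cells also developed with it. In each genotype, 1 group was cultured for 3 h without stimulus (unstimulated). The others received a goat F(ab')2 antibody against mouse IgM at 10 µg/ml, which crosslinks the antigen receptor, and were taken after 3 h or 12 h. This gave 6 groups of 2 arrays. The unstimulated cells were kept for 3 h only, so that at 12 h the stimulus and the longer culture cannot be told apart. The study comprised 2 independent experiments, and the labels do not say whether a replicate was 1 mouse or a pool.

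Values are log2 signals, so that a difference of 1 is a doubling, and array medians of 3.12 to 3.21 lie near the floor of the signal. Ikzf1 was read at 9.83 to 10.00 in the 4 unstimulated arrays of both genotypes, at 8.93 and 9.10 in WT cells, against 8.58 and 8.08 in IkL/L cells at 3 h, and at 10.33 and 10.00 against 9.59 and 8.98 at 12 h. Its difference between the genotypes passed no threshold in any condition (limma adjusted p of 0.937, 0.193 and 0.148). The differences of IkL/L from WT were 0.13 in unstimulated cells, -0.68 at 3 h and -0.88 at 12 h. At 3 h and 12 h both IkL/L arrays lay below both WT arrays. Averaged over conditions the difference was -0.48 (limma adjusted p = 0.0533). Of the follicular B cell markers, 7 of 7 measured stood above the floor on all arrays, and their summed log2 level was 73.87 and 75.38 in unstimulated WT cells, 64.08 and 66.31 at 3 h, 71.25 and 71.85 in unstimulated IkL/L cells, and 59.62 and 61.18 at 3 h, with 4 to 6 of the 7 called lower in each comparison with unstimulated cells. The floor was set at 4.21. The 5 T cell and 2 NK cell markers measured were under it on every array, as were 3 of 6 myeloid markers, which summed to between 18.91 and 27.21 with S100a8 at 3.42 to 7.26. In the 3 WT arrays of replicate 1, Xist was at 10.01 to 10.69 and the Y-linked Eif2s3y at 2.41 to 2.83, whereas the other 9 arrays had Xist at 3.19 to 3.48 and Eif2s3y at 8.30 to 9.24. This is the pattern of female cells in WT replicate 1 and of male cells in the rest, and counts of members without that replicate are given further on. Its part in the results for WT cells was not tested beyond that. Fewer cells of a type and less RNA per cell cannot be told apart in such bulk samples.

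The promoters of 5 members that moved in the same direction in both genotypes are shown, because their changes carry the results described further on: Hnrnpab, Hnrnpd, Snrpa1 and Snrpd3, which rose at both times, and Hnrnph3, which fell at 3 h. Each line gives the 250 bases before the RefSeq transcription start in assembly GRCm38.p6, 5′ to 3′ on the gene's own strand. Capitals mark matches, on either strand, to 1 of 3 motifs: CACGTG (the E-box), TGGGAA (the core bound by Ikaros proteins) and CCGGAA (the core bound by ETS factors, which reads TTCCGG on the other strand).
Hnrnpab: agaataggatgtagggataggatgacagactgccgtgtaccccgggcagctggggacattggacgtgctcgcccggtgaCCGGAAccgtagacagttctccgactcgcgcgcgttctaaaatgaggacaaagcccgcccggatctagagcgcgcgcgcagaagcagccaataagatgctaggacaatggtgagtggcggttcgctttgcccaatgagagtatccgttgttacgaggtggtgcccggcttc
Hnrnpd: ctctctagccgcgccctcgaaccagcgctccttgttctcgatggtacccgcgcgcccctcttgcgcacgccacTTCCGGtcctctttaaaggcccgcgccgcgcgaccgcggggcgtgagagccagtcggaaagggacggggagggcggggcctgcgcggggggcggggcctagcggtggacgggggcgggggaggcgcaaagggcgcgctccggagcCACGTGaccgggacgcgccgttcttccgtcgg
Snrpa1: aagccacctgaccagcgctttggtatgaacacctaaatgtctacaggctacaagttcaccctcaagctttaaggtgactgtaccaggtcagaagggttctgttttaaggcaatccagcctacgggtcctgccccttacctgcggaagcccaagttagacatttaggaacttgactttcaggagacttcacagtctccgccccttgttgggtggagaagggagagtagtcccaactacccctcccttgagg
Snrpd3: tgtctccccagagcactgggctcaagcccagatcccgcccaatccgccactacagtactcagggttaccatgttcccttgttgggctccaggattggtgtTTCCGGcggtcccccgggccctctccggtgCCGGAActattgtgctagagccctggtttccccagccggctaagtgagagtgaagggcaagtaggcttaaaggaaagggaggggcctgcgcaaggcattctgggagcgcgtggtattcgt
Hnrnph3: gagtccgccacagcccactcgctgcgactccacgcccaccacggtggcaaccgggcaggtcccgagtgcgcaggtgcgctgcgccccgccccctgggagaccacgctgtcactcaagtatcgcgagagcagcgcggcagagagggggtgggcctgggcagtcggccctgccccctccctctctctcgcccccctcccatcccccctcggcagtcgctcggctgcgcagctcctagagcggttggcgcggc

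These windows lie at chr11:51606882-51607131 on the minus strand for Hnrnpab, chr5:99978939-99979188 on the minus strand for Hnrnpd, chr7:66060086-66060335 on the plus strand for Snrpa1, chr10:75517792-75518041 on the plus strand for Snrpd3 and chr10:63023850-63024099 on the minus strand for Hnrnph3. The ETS core begins 171 bases before the start in Hnrnpab and 177 bases before it in Hnrnpd, and Snrpd3 holds it at 150 and 120 bases. Hnrnpd also holds an E-box 32 bases before its start, while Snrpa1 and Hnrnph3 hold none of the 3 motifs in this window. A RefSeq entry was found for 35 of 38 members (not for Snrpb, Hnrnpul2 and Hnrnpll), with 50 windows between them since some genes have several starts. CCGGAA was present in 20 of the 50 windows, belonging to 16 genes, against 12.0% of all 32851 windows and 26.2% of the 6365 windows of bright genes. TGGGAA was present in 6.0% of the members' windows (Snrpf, Srsf1 and Srsf9) against 21.6% of all and 18.5% of the bright ones, and CACGTG in 4.0% (Hnrnpd and Hnrnpf) against 6.02% and 9.82%. None of the 3 motifs is a match to another, windows of 1 gene can share sequence, and a match is a description of letters and not a bound site.

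Stimulation for 3 h raised more members than it lowered. In WT cells 8 of 38 members rose and 2 fell, against 9.15% of all genes that rose and 10.2% that fell (limma, adjusted p under 0.05). In IkL/L cells 11 rose and 2 fell, against 9.82% and 10.6% of all genes. At 12 h against unstimulated cells, 8 rose and 2 fell in WT cells, where 10.1% of all genes rose and 8.66% fell, and 9 rose and 1 fell in IkL/L cells, where 9.72% rose and 7.87% fell. Bright genes are called more often, and of these 23.3% rose in WT and 23.7% in IkL/L cells at 3 h, and 24.6% and 22.3% at 12 h. The members' own shares of rises, 21.1%, 28.9%, 21.1% and 23.7% in that order, lie near this background. Their shares of falls were 5.26%, 5.26%, 5.26% and 2.63%, beside 20%, 20.6%, 18.1% and 16.4% of the bright genes.

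**Figure D1:**
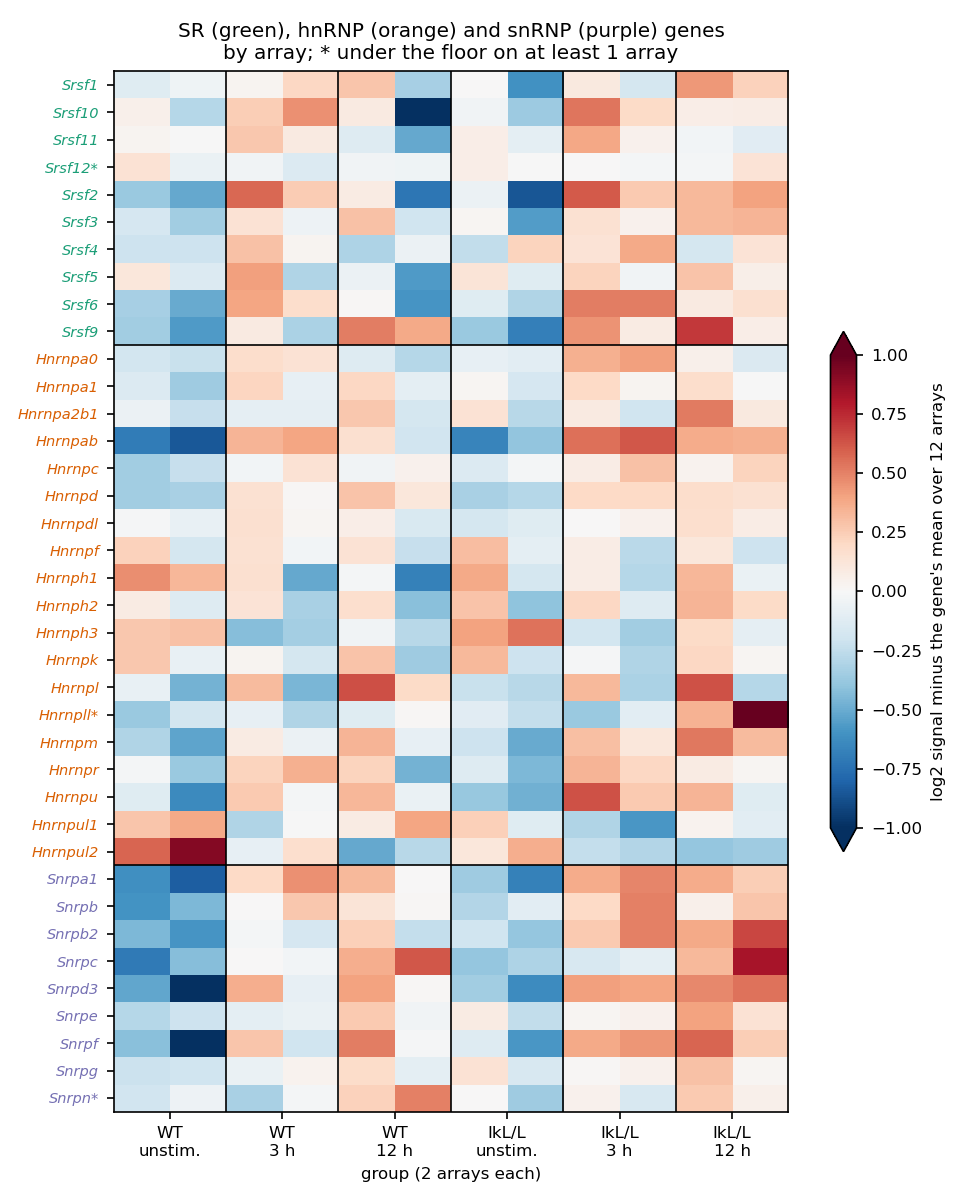
Log2 signal of each member on each of the 12 arrays, as the difference from that gene's mean over all arrays (colour scale from -1 to 1), with columns grouped by genotype and condition and rows by family. Most snRNP rows at the bottom are blue in both unstimulated groups and mostly red after stimulation, and Hnrnpul2 runs the other way. Snrpe and Snrpg stand above their means in IkL/L unstimulated replicate 1, and many SR rows are low in WT 12 h replicate 2.

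The 3 families are described in turn. Of all genes, 9.15% rose in WT and 9.82% in IkL/L cells at 3 h, and 10.1% and 9.72% at 12 h. Bright genes rose more often, as given above. The counts of rises among hnRNP and SR genes lie near these shares, and nothing is read from them. Of the 9 snRNP genes, 4 rose in WT cells at 3 h, 5 in WT cells at 12 h and 4 at each time in IkL/L cells, and none fell. Their median change was 0.56, 0.59, 0.55 and 0.77 in that order, against medians over all genes of 0.02, 0.05, -0.03 and 0.02. Many of all genes lie near the floor, unlike most members. HnRNP genes moved both ways: 3 rose and 2 fell of 19 in WT cells at 3 h, 2 and 2 at 12 h, and 5 and 2 and then 4 and 1 in IkL/L cells, with medians of 0.13, 0.07, 0.17 and 0.26. Of 10 SR genes, 1, 1, 2 and 1 rose in these comparisons and none fell, and the median was 0.33 and 0.04 in WT cells, against 0.32 and 0.30 in IkL/L cells. When each array was instead scaled to 8 housekeeping genes, 2 of which were themselves called higher at 12 h, the median of all genes shifted by -0.126 in WT and -0.286 in IkL/L cells at 12 h, and the 12 h medians of the SR and hnRNP genes in WT cells turned to -0.08 and -0.05, that of the hnRNP genes in IkL/L cells turned to -0.02 and that of the SR genes there was 0.02. On that scale 7 members rose and 4 fell at 12 h in WT cells, and 5 rose and 2 fell in IkL/L cells, and the snRNP medians were 0.47 and 0.48. Where every probe set of a gene entered its mean, the snRNP median in IkL/L cells at 12 h was 0.37, the SR median there at 3 h was 0.60, and the hnRNP medians at 12 h were 0.01 in WT and 0.17 in IkL/L cells.

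Among the snRNP genes, Snrpa1 and Snrpd3 rose in all 4 comparisons with unstimulated cells. Snrpa1 encodes the A' protein of the U2 snRNP, the particle that binds the branch point. Its log2 signal was 8.76 and 8.55 in unstimulated WT cells, 9.57 and 9.83 at 3 h, and 9.70 and 9.38 at 12 h, and in IkL/L cells 9.02 and 8.70, then 9.74 and 9.86, then 9.74 and 9.62. Every stimulated array was above every unstimulated one. The rise was 1.05 ± 0.16 (moderated SE; 2.07-fold) at 3 h and 0.89 ± 0.16 at 12 h in WT cells (limma adjusted p of 0.0012 and 0.00345), and 0.94 ± 0.16 and 0.82 ± 0.16 in IkL/L cells (0.00226 and 0.00616). All 3 probe sets of Snrpa1 were called higher in all 4 comparisons, and no array left out alone ended any of these calls. Each of the 4 calls ended when a replicate was left out in all conditions of its genotype. In WT cells this was replicate 2 at 3 h (0.81) and replicate 1 at 12 h (0.84). For IkL/L cells it was replicate 2 at 3 h (0.72) and either replicate at 12 h (0.92 without replicate 1, 0.72 without replicate 2).

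Snrpd3 encodes SmD3, a subunit of the Sm ring that all the Sm-class U snRNPs share. It was read at 9.79 and 9.28 in unstimulated WT cells, at 10.67 and 10.23 at 3 h and at 10.71 and 10.32 at 12 h. In IkL/L cells it was at 9.96 and 9.68, then at 10.72 and 10.70, then at 10.79 and 10.85. Stimulated and unstimulated arrays did not overlap, and in WT cells replicate 1 was above replicate 2 in each condition. The rises were 0.91 and 0.98 in WT cells, against 0.89 and 1.00 in IkL/L cells, each with an SE of 0.21 (adjusted p of 0.0109, 0.00785, 0.0119 and 0.00784). The WT calls were lost without unstimulated replicate 2 (0.66 at 3 h and 0.72 at 12 h), without 3 h replicate 1 (0.69) and without 12 h replicate 1 (0.79), with limma adjusted p between 0.0629 and 0.106. The calls in IkL/L cells ended without unstimulated replicate 2 (0.75 and 0.86), without either 3 h array (0.88 and 0.90) and without replicate 2 at 12 h (0.97), with adjusted p between 0.0534 and 0.0771, and the mean of its 3 probe sets gave 0.32 at 12 h (adjusted p = 0.0857).

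Snrpc, whose product U1-C helps the U1 snRNP hold the 5′ splice site, stood higher at 12 h than at 3 h on all arrays of each genotype. Its signal was 8.46 and 8.74 in unstimulated WT cells, 9.17 and 9.14 at 3 h and 9.53 and 9.79 at 12 h, and 8.78 and 8.86, 9.01 and 9.07, and 9.49 and 9.99 in IkL/L cells. At 12 h it was up by 1.06 ± 0.17 in WT (2.09-fold, adjusted p = 0.00171) and 0.92 ± 0.17 in IkL/L cells (0.00437), calls that no array left out alone ended. With housekeeping scaling the IkL/L value was 0.64 (adjusted p = 0.0674). The WT 12 h call ended, at 1.05, without WT replicate 1 in all conditions, and the IkL/L 12 h call, at 0.71, without IkL/L replicate 2. At 3 h the rise was 0.56 in WT (adjusted p = 0.0487), a call that ended without any 1 of the 4 arrays (0.41 to 0.70, limma adjusted p from 0.0624 to 0.298), with the mean of its probe sets (0.31) and with housekeeping scaling (0.57), and the difference in IkL/L cells was 0.22, not called. From 3 h to 12 h it gained 0.70 ± 0.17 in IkL/L cells (limma adjusted p = 0.0208). That call ended without 3 h replicate 1 (0.67), 3 h replicate 2 (0.73) or 12 h replicate 2 (0.45). It also ended with housekeeping scaling (0.39) or the mean of its probe sets (0.32). In WT cells the change from 3 h to 12 h was not called in the main fit. With a replicate block within genotype, described further on, it was called at 0.51.

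Snrpb, the gene of the SmB ring subunit, was at 9.84 and 9.99 in unstimulated WT cells and at 10.44 to 10.71 in the 4 stimulated ones. It rose by 0.65 and 0.59 in WT cells and by 0.55 at 3 h in IkL/L cells, each ± 0.15, with adjusted p of 0.0122, 0.0213 and 0.0279. Each of these 3 calls was lost without at least 1 array, at 0.52 to 0.67 in WT and 0.40 and 0.46 in IkL/L cells, and with housekeeping scaling the WT 12 h call (0.47, adjusted p = 0.159) and the IkL/L call (0.58, adjusted p = 0.0703) ended. Snrpf, another ring subunit, was at 8.75 and 8.09 in unstimulated WT cells and at 9.68 and 9.16 at 12 h, a rise of 1.00 ± 0.27 (adjusted p = 0.0253) that was lost without unstimulated replicate 2 (0.67) or 12 h replicate 1 (0.74). Its differences of 0.80 in WT cells at 3 h, and of 0.76 and 0.77 in IkL/L cells, were not called. With an intensity trend they were called, and with housekeeping scaling those at 3 h were. Snrpb2, which encodes the B'' partner of the A' protein in the U2 snRNP, was at 8.43 and 8.29 in unstimulated WT cells and at 8.68 and 8.49 in IkL/L cells, and reached 9.14 and 9.38 at 3 h and 9.26 and 9.55 at 12 h in the latter. There it rose by 0.67 and 0.82 (each ± 0.18, adjusted p of 0.0211 and 0.00937), and in WT cells the differences were 0.42 and 0.52, not past the threshold. Both calls ended without unstimulated replicate 2 (0.58 and 0.72) and without replicate 2 of the stimulated pair (0.55 and 0.68), and the mean of its probe sets gave 0.38 and 0.34 (adjusted p of 0.0576 and 0.102). The 12 h rise was 0.53 with housekeeping scaling (adjusted p = 0.055).

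The remaining snRNP genes were called in no comparison. Snrpe and Snrpg, both ring subunits, ranged from 11.11 to 11.80 and from 11.37 to 11.88 over the 12 arrays through their brightest probe sets, with differences from unstimulated cells of 0.12 to 0.36 and 0.04 to 0.25. A second, dimmer probe set of Snrpg (1448357_at) was called higher in WT cells at 3 h and 12 h (0.62 and 1.06) and in IkL/L cells at 12 h (0.66). Snrpn, the gene of the SmN protein of neurons, was under the floor on all 12 arrays (2.65 to 3.51), so that no fold is given for it. The brightest of the probe sets shared by Snrpn and Snurf, which the same transcript encodes, was at 6.62 to 7.78.

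**Figure D2:**
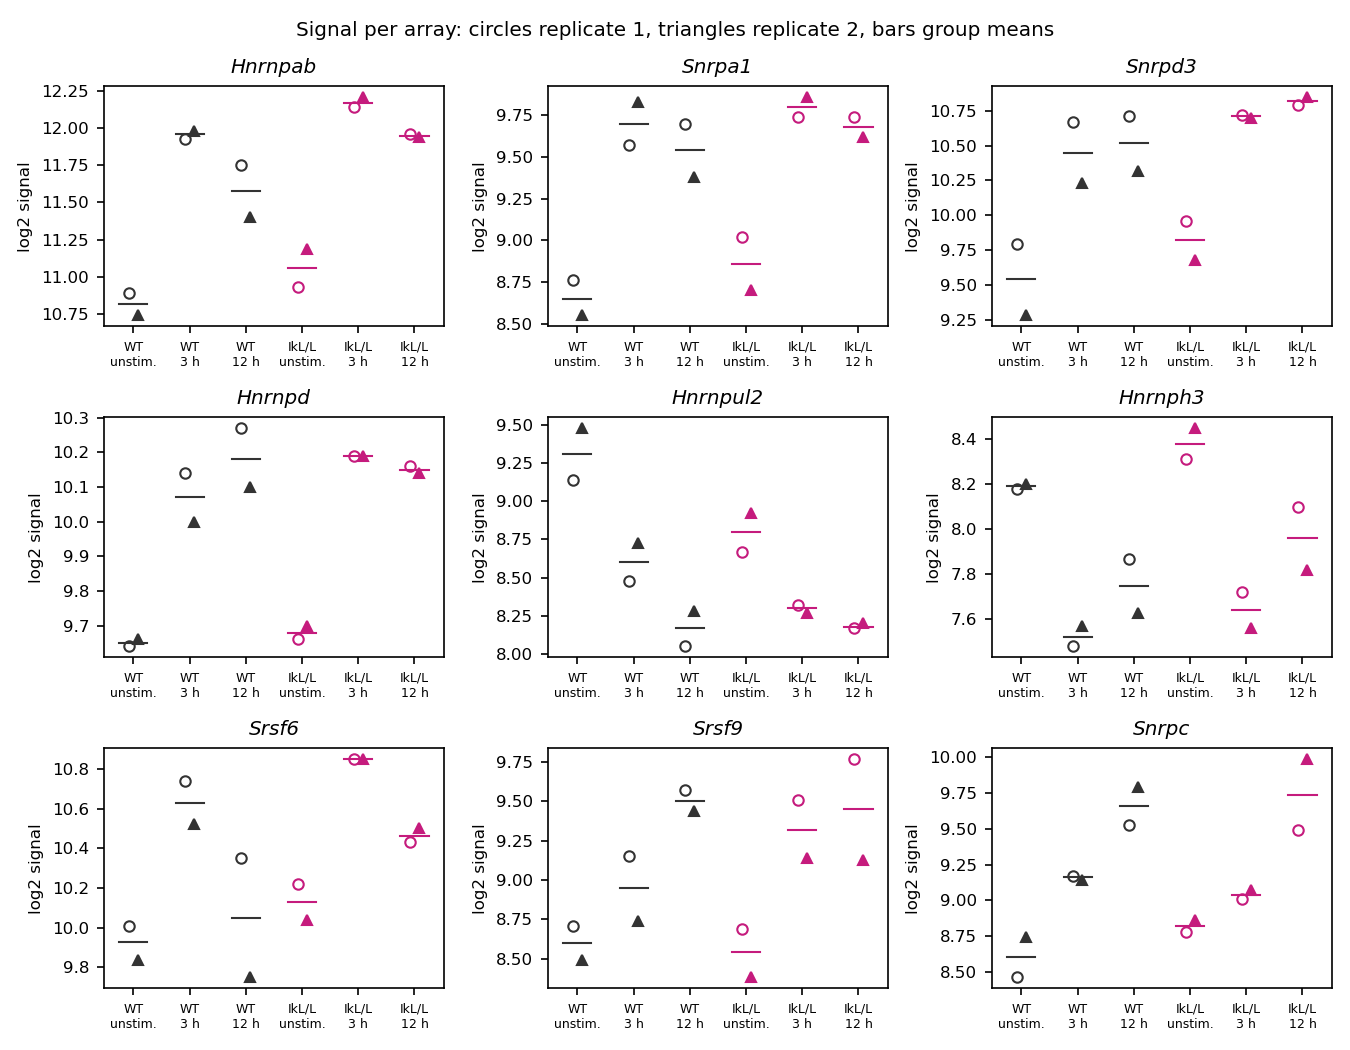
Log2 signal per array of 9 members in the 6 groups (dark for WT, pink for IkL/L), with circles for replicate 1, triangles for replicate 2 and bars for group means; each panel has its own vertical axis. Hnrnpab, Snrpa1, Snrpd3 and Hnrnpd stand higher in every stimulated array than in the unstimulated ones, Hnrnpul2 stands lower than in the unstimulated ones of its genotype, and Srsf6 is higher at 3 h than at 12 h.

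Of the hnRNP genes, Hnrnpab had the largest rise at 3 h in both genotypes. Its product binds RNA and single-stranded DNA. The signal went from 10.89 and 10.74 in unstimulated WT cells to 11.93 and 11.98 at 3 h and 11.75 and 11.40 at 12 h, and from 10.93 and 11.19 in IkL/L cells to 12.14 and 12.21 and then 11.96 and 11.94. The lowest stimulated array was above the highest unstimulated one. These were rises of 1.14 (2.20-fold) and 0.76 in WT cells, against 1.11 and 0.89 in IkL/L cells, each ± 0.14 (limma adjusted p of 0.00032, 0.00407, 0.000357 and 0.00194). No single array ended a call. The WT 12 h call ended, at 0.65, without WT replicate 1 in all conditions, and the IkL/L 12 h call, at 0.74, without IkL/L replicate 1. Of its 7 probe sets, 5 were called higher in WT cells at 3 h and at 12 h and 6 at each time in IkL/L cells.

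Hnrnpd, known as AUF1, binds AU-rich elements that set the stability of messenger RNAs. It was read at 9.64 and 9.66 in unstimulated WT cells, then at 10.14 and 10.00, then at 10.27 and 10.10, and at 9.66 and 9.70, 10.19 and 10.19, and 10.16 and 10.14 in IkL/L cells. No stimulated array overlapped the unstimulated ones, and the rises were small: 0.42, 0.53, 0.51 and 0.47 in the order above, each ± 0.11 (adjusted p of 0.0194, 0.00577, 0.0066 and 0.0123). Its other probe sets are near the floor (means of 4.24 and 2.80), and averaged with them the 3 h difference in WT cells was 0.29 (adjusted p = 0.0728) and the 12 h differences were -0.04 in each genotype (adjusted p of 0.868 and 0.882). With housekeeping scaling the 12 h difference in IkL/L cells was 0.18 (limma adjusted p = 0.265). Leaving out replicate 1 or replicate 2 in all conditions ended the WT 12 h call (0.44 and 0.63) and the IkL/L 3 h call (0.49 and 0.53). The WT 3 h call was lost without either unstimulated array (0.41 and 0.43) and without 3 h replicate 1 (0.35), and that in IkL/L cells at 12 h without unstimulated replicate 1 (0.45) or either 12 h array (0.46 and 0.48).

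Hnrnpul2 and Hnrnph3 fell. Hnrnpul2, a relative of the nuclear scaffold protein encoded by Hnrnpu, went from 9.14 and 9.48 in unstimulated WT cells to 8.48 and 8.73 at 3 h and 8.05 and 8.28 at 12 h. The IkL/L values went from 8.67 and 8.92 to 8.32 and 8.27 and then 8.17 and 8.20. The changes were -0.70 and -1.14 in WT cells (1.63-fold and 2.21-fold lower) and -0.50 and -0.61 in IkL/L cells, all called lower, each ± 0.15 (adjusted p of 0.00866, 0.000603, 0.0455 and 0.0205). The WT 12 h call held without each single array, the WT 3 h call ended without unstimulated replicate 2 (-0.53) or 3 h replicate 1 (-0.58), and those in IkL/L cells ended without unstimulated replicate 2 (-0.37 and -0.48) and without either stimulated array (-0.48 to -0.63). With housekeeping scaling the IkL/L value at 3 h was -0.47 (adjusted p = 0.172). A second probe set (1415765_at, mean 7.50) was called in none of these comparisons, with differences of -0.35, 0.00, -0.24 and 0.13, and the mean of both gave -0.24 in IkL/L cells at 12 h (adjusted p = 0.176).

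Hnrnph3, of the family that binds runs of G, was at 8.18 and 8.20 in unstimulated WT cells, 7.48 and 7.57 at 3 h and 7.87 and 7.63 at 12 h. In IkL/L cells it was at 8.31 and 8.45, then 7.72 and 7.56, then 8.10 and 7.82, so that the 12 h arrays lay between the others in both genotypes. The 3 h changes were -0.67 and -0.74 (each ± 0.14; adjusted p of 0.00584 and 0.00311), calls that held with each array left out alone. At 12 h the change was -0.44 in WT cells (adjusted p = 0.0478), which ended without unstimulated replicate 1 (-0.45), unstimulated replicate 2 (-0.44) or 12 h replicate 2 (-0.32) and with an intensity trend in the fit (adjusted p = 0.11), and its difference of -0.42 in IkL/L cells was not called. The latter was called with housekeeping scaling (-0.71, adjusted p = 0.00582), with the mean of probe sets (adjusted p = 0.0442) and with a replicate block shared by both genotypes (adjusted p = 0.0493).

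The genes Hnrnpa0, Hnrnpm and Hnrnpu were called in some of the comparisons. Hnrnpa0 was at 9.81 and 9.77 in unstimulated WT cells, 10.17 and 10.14 at 3 h and 9.86 and 9.71 at 12 h, and at 9.91 and 9.89, 10.35 and 10.40, and 10.04 and 9.85 in IkL/L cells. This gene, whose product binds AU-rich RNA, rose by 0.36 and 0.47 at 3 h (adjusted p of 0.0445 and 0.0116) and fell by 0.43 from 3 h to 12 h in IkL/L cells (0.0241). Its WT call was lost without any 1 of the 4 arrays (0.34 to 0.38) and, at 0.36 to 0.38, with housekeeping scaling, an intensity trend or the dimmest genes removed, that in IkL/L cells without 3 h replicate 2 (0.45), and the later fall without either 3 h array (-0.46 and -0.41) or 12 h replicate 2 (-0.34). Hnrnpm, at 9.41 and 9.12 in unstimulated IkL/L cells, was at 9.92 and 9.73 at 3 h and 10.15 and 9.94 at 12 h, rises of 0.56 and 0.78 (adjusted p of 0.045 and 0.0103) beside differences of 0.43 and 0.55 in WT cells that were not called. Hnrnpu rose from 10.69 and 10.59 to 11.71 and 11.33 at 3 h in IkL/L cells (0.88 ± 0.23, adjusted p = 0.0208) and differed by 0.50 in WT cells, not called. The IkL/L calls of Hnrnpm and Hnrnpu ended without unstimulated replicate 2 (0.41 and 0.64 for Hnrnpm, 0.83 for Hnrnpu) and without the first stimulated replicate (0.46, 0.68 and 0.69), and at 3 h also without replicate 2 for Hnrnpm (0.65) and without unstimulated replicate 1 for Hnrnpu (0.94).

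Hnrnpll encodes a regulator of the splicing of the CD45 phosphatase in lymphocytes, and takes part in immunoglobulin processing in plasma cells. It was under the floor of 4.21 on 11 of 12 arrays (2.80 to 3.52) and at 4.70 on the remaining one, replicate 2 of the IkL/L cells at 12 h. The called differences of 1.11 against unstimulated cells and 1.18 against 3 h (adjusted p of 0.0277 and 0.024) therefore rest on 1 array, no fold is given, and without that array they were 0.52 and 0.58 (adjusted p of 0.115 and 0.0786). The 4 plasma cell markers summed to 19.23 and 22.97 in the arrays of that group, against 21.37 and 24.11 in unstimulated IkL/L cells, and their part was not tested. From unstimulated IkL/L cells to 12 h, the means of these markers went from 3.28 to 2.57 for Sdc1, 3.38 to 3.13 for Prdm1, 7.16 to 5.59 for Jchain and 8.92 to 9.81 for Xbp1. The Hnrnpll differences were 0.82 and 0.86 with housekeeping scaling (adjusted p of 0.0963 and 0.0863). Hnrnpl, its relative, was at 5.18 and 4.78 in unstimulated WT cells and between 4.80 and 5.90 after stimulation in either genotype, with differences of 0.21 to 0.69 and no call. Hnrnpa1, a general antagonist of SR proteins, lay between 9.67 and 10.24 on all arrays, with differences of 0.16 to 0.31 and no call. The other hnRNP genes without a call against unstimulated cells were Hnrnpa2b1, Hnrnpc, Hnrnpdl, Hnrnpf, Hnrnph1, Hnrnph2, Hnrnpk, Hnrnpr and Hnrnpul1, with differences between -0.75 (Hnrnph1 in WT cells at 12 h) and 0.57 (Hnrnpr in IkL/L cells at 3 h). Hnrnpc binds runs of U in nascent RNA, and Hnrnpk runs of C.

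Among the SR genes, 2 were called through their brightest probe sets. Srsf6 (SRp55) was at 10.01 and 9.84 in unstimulated WT cells, 10.74 and 10.52 at 3 h, and 10.35 and 9.75 at 12 h. In IkL/L cells it was at 10.22 and 10.04, then 10.85 and 10.85, then 10.43 and 10.50. It rose by 0.70 and 0.72 at 3 h (each ± 0.18; adjusted p of 0.0206 and 0.0175) and stood 0.12 and 0.34 above unstimulated cells at 12 h, not called. The 3 h calls ended without unstimulated replicate 2 (0.62 and 0.63) and without the first 3 h array (0.59 and 0.72), in WT cells also without unstimulated replicate 1 (0.79) and in IkL/L cells also without 3 h replicate 2 (0.72).

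Srsf9 (SRp30c) was at 8.71 and 8.49 in unstimulated WT cells, 9.15 and 8.74 at 3 h and 9.57 and 9.44 at 12 h, and at 8.69 and 8.38, 9.51 and 9.14, and 9.77 and 9.13 in IkL/L cells. It rose by 0.90 and 0.92 at 12 h (each ± 0.23; adjusted p of 0.0196 and 0.0197) and by 0.79 at 3 h in IkL/L cells (0.0346), with a difference of 0.35 at 3 h in WT cells. The WT 12 h call and the IkL/L 3 h call were lost without any 1 of their 4 arrays (0.79 to 1.02 and 0.60 to 0.97), and the IkL/L 12 h call without unstimulated replicate 2 (0.76) or 12 h replicate 1 (0.60).

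The other SR genes were not called through their brightest probe sets. Srsf1 (ASF/SF2), the founding SR protein, lay between 10.26 and 11.30, and its differences from unstimulated cells were 0.20 and 0.06 in WT cells, against 0.26 and 0.63 in IkL/L cells. Srsf3, which also couples splicing to RNA export, lay between 9.74 and 10.64, with differences of 0.31 and 0.31, and 0.37 and 0.60. For Srsf5 the range was 10.03 to 11.01 and the differences were 0.08 and -0.30, and 0.09 and 0.16. Srsf2 (SC35) was at 9.30 and 9.16 in unstimulated WT cells, 10.25 and 9.93 at 3 h and 9.76 and 8.95 at 12 h, and at 9.62 and 8.82, 10.29 and 9.94, and 10.00 and 10.08 in IkL/L cells. Its 3 h differences of 0.86 and 0.90 were not called, although the 3 h arrays lay above the unstimulated ones in both genotypes. They were called with either replicate block, the mean of its probe sets, housekeeping scaling and an intensity trend (adjusted p of 0.00393 to 0.0396 in WT and 0.00841 to 0.0297 in IkL/L cells). The 12 h differences of Srsf1, Srsf2 and Srsf3 in IkL/L cells were called with either block, the mean of probe sets and an intensity trend (adjusted p of 0.00871 to 0.0445). The mean of probe sets also called Srsf1 (0.59) and Srsf3 (0.66) at 3 h there. Srsf12 was under the floor on every array (2.33 to 2.61), and Srsf4, Srsf10 and Srsf11 had no call.

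**Figure D3:**
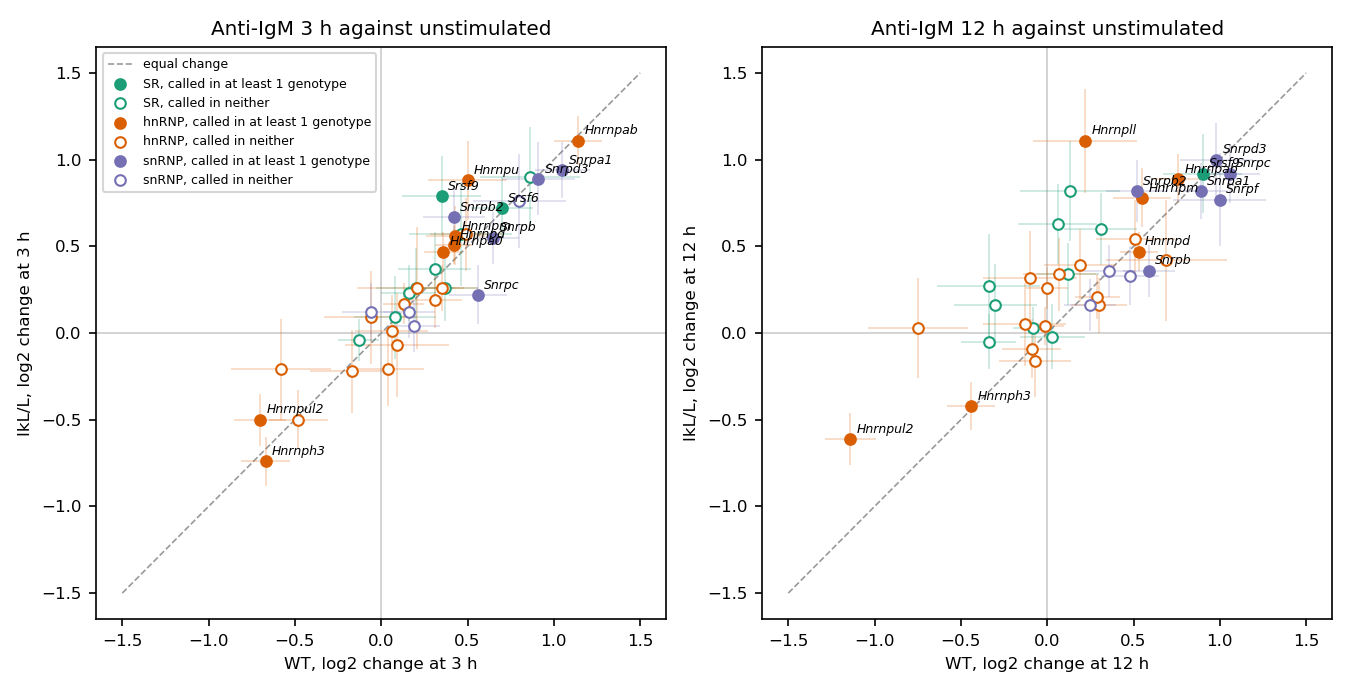
Log2 change against unstimulated cells in WT (horizontal) and IkL/L cells (vertical) at 3 h and 12 h, 1 point per member with moderated SE as bars, filled where called in at least 1 genotype; the dashed line marks equal change. Most points lie near the line at 3 h, Hnrnpab and Snrpa1 at the upper end and Hnrnph3 and Hnrnpul2 at the lower; at 12 h Hnrnpll, near the floor in 11 of 12 arrays, lies farthest above it.

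More SR genes were called through probe sets other than the brightest. The 38 members have 109 probe sets with 1 symbol, 26 members having several and at most 7, and all 34945 such probe sets were fitted together. In WT cells 23 of the 109 were called higher at 3 h (7.78% of all probe sets) and 18 at 12 h (7.81%). For IkL/L cells 39 were called higher at 3 h (9.61%) and 28 at 12 h (8.03%). Many of all probe sets lie near the floor, and a share among bright probe sets was not computed. Probe sets of 1 gene are also counted separately, so nothing is read from these counts. A probe set of Srsf2 (1415807_s_at) was called higher in all 4 comparisons, by 2.04 and 0.99 in WT cells, against 1.57 and 0.98 in IkL/L cells. For Srsf3, 3 of 6 probe sets were called higher in IkL/L cells at 3 h (0.53 to 1.29), and for Srsf10 3 of 4 (0.74 to 1.00), none of them the brightest. Probe sets of 1 gene were called in opposite directions in 2 cases: Srsf1 in WT cells at 12 h, with 1428100_at at -0.60 and 1430982_at at 0.89, and Hnrnpdl in IkL/L cells at 3 h, with 1424252_at at -0.50 and 1420093_s_at at 0.53. Probe sets of a gene can sit on different transcript ends or isoforms, which the array annotation used here does not place.

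**Figure D4:**
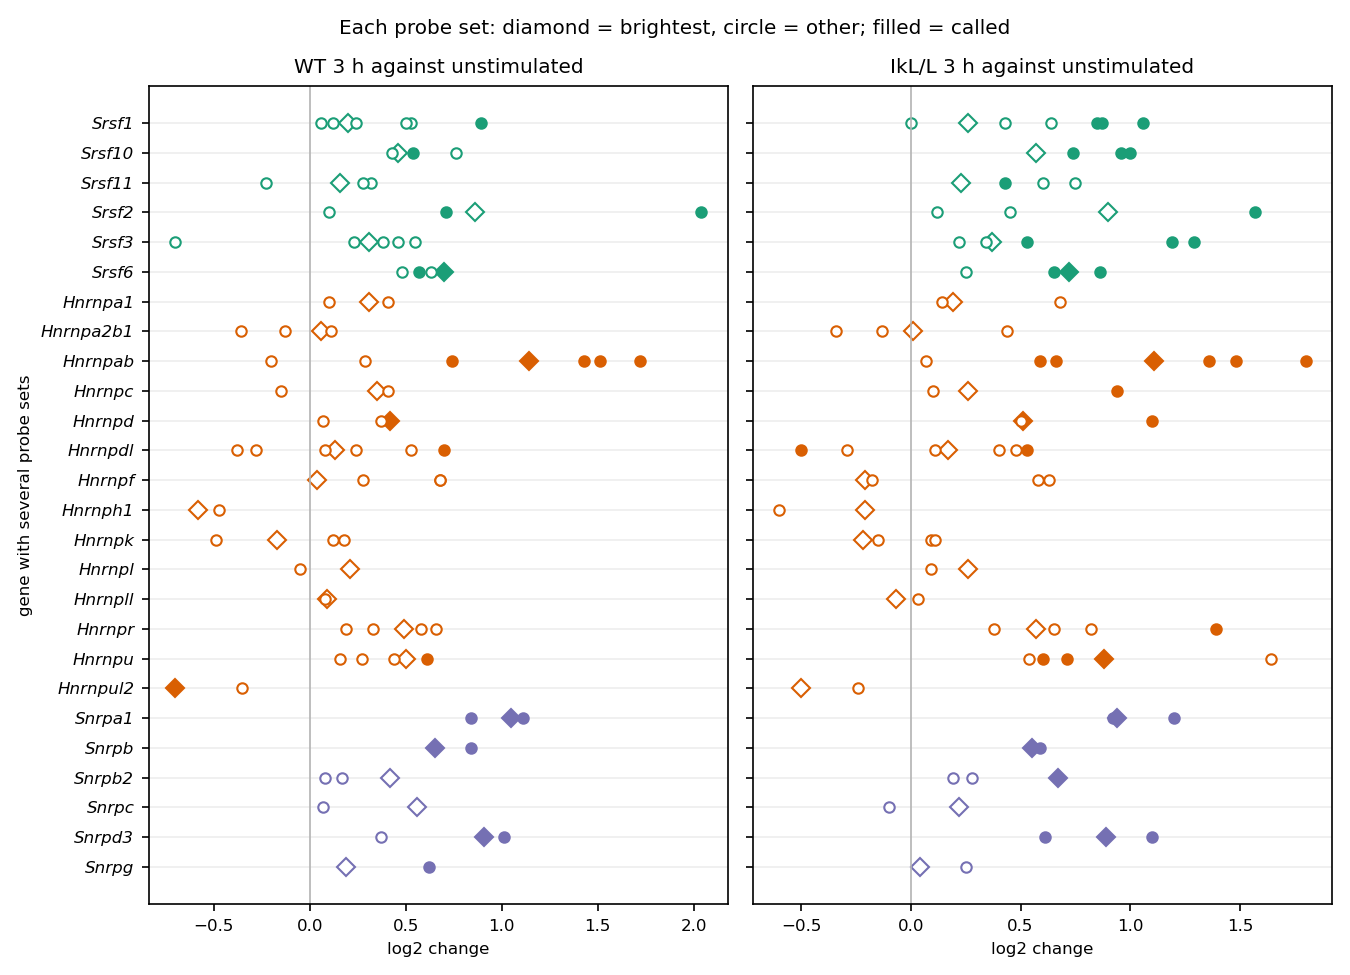
Log2 change at 3 h of every probe set of the 26 members with several, in WT (left) and IkL/L cells (right); diamonds are the brightest probe set of a gene, circles the others, and filled symbols are called over all 34945 probe sets. Probe sets of Snrpa1 lie together on the right, whereas those of Srsf2, Srsf3 and Hnrnpab spread widely, from 0.10 to 2.04 for Srsf2 in WT cells.

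Few members were called from 3 h to 12 h through their brightest probe sets in the main fit, which holds no replicate block. In WT cells none of 38 was called by limma (10 at an unadjusted p under 0.05), against 10.8% of all genes. With the replicate block within genotype, described further on, 8 were called. The median was -0.36 for SR, -0.01 for hnRNP and 0.09 for snRNP genes, the last turning to -0.05 with housekeeping scaling. Of the members in IkL/L cells, 2 rose (Hnrnpll and Snrpc) and 1 fell (Hnrnpa0), against 9.12% and 6.42% of all genes, with medians of 0.00, 0.10 and 0.13, which housekeeping scaling turned to -0.31, -0.22 and -0.19. Without either 3 h array or without 12 h replicate 2 the IkL/L count was 0. Without WT 12 h replicate 1 the WT count was 5, all lower: Srsf10 (-1.36), Srsf2 (-1.14), Srsf6 (-0.88), Hnrnpr (-0.76) and Srsf11 (-0.69). With housekeeping scaling the split was 0 higher and 5 lower in IkL/L cells (Hnrnpa0, Hnrnpab, Hnrnpu, Srsf6 and Srsf11) and 0 and 3 in WT cells (Hnrnpa0, Srsf6 and Srsf11). Among the 109 probe sets, 7 were called lower in WT cells (3.66% of all probe sets) and none higher, and 14 lower in IkL/L cells (6.60%) and 2 higher. These shares have the same limits as those of the probe sets above, and nothing is read from the counts. Probe sets called lower in both genotypes included Srsf6 1416720_at (-1.28 and -0.88) and 1416721_s_at (-0.76 and -1.08), Srsf1 1428100_at (-1.09 and -0.70) and Hnrnpu 1434390_at (-1.12 and -1.07).

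Arrays of 1 genotype with the same replicate number deviated together, and with the replicate number as a block within genotype more members passed the threshold. In WT cells at 3 h 17 were then called (13 higher, 4 lower), with Srsf2 (0.86, adjusted p = 0.0114), Snrpf (0.80, 0.00174), Hnrnpu, Hnrnpm and Hnrnpc added among the higher and Hnrnph1 (-0.58, 0.017) and Hnrnpul1 (-0.48, 0.0134) among the lower. At 12 h 16 were called (13 higher, 3 lower), with Hnrnpl (0.69), Hnrnpm, Hnrnpu, Snrpb2 and Snrpn added above and Hnrnph1 (-0.75) below. From 3 h to 12 h the block gave 8 calls: Srsf2 (-0.73), Srsf6 (-0.58), Srsf10 (-0.81), Srsf11 (-0.50) and Hnrnpul2 (-0.44) were lower and Snrpc (0.51), Srsf9 (0.56) and Snrpn higher, the last under the floor throughout. For IkL/L cells the block gave 17 calls at 3 h in place of 13, adding Srsf2 (0.90), Snrpf (0.76), Hnrnpr (0.57) and Hnrnpul1 (-0.50). At 12 h it gave 15 in place of 10, adding Srsf2 (0.82), Snrpf (0.77), Srsf1 (0.63), Srsf3 (0.60) and Hnrnpu (0.54). In WT cells, leaving out 1 array took the 3 h count from 10 to 6 (unstimulated replicate 1), 4 (unstimulated replicate 2) or 4 (3 h replicate 1), and the 12 h count to 5 (unstimulated replicate 2). Without WT replicate 1 in all conditions, the samples of the other sex, 3 of the members remained called at 3 h (Hnrnpab, Snrpa1 and Snrpd3) and 2 at 12 h (Hnrnpul2 and Snrpd3), with 1 array left in each WT group, and without WT replicate 2 the counts were 3 and 5. The 3 h count in IkL/L cells went from 13 to 7 without unstimulated replicate 2 or 3 h replicate 1 and to 5 without 3 h replicate 2, and the 12 h count from 10 to 4 without unstimulated replicate 2 and to 5 without 12 h replicate 2, and without either replicate in all conditions the counts were 3 and 1 at 3 h and 3 and 2 at 12 h.

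No member was called between the genotypes within a condition. In unstimulated cells, at 3 h and at 12 h no member passed the threshold (limma; 1, 1 and 5 at an unadjusted p under 0.05), where 1.13%, 1.70% and 0.616% of all genes did. The largest differences of IkL/L from WT in unstimulated cells were -0.51 for Hnrnpul2 (95% interval -0.86 to -0.17), 0.40 for Snrpf (-0.20 to 1.00) and 0.32 for Snrpb (-0.02 to 0.66). With the replicate block the Hnrnpul2 difference was called (limma adjusted p = 0.0465). That block takes the spread between replicates of a genotype out of the error, so no genotype difference is read from this call. At 3 h the largest differences were 0.47 for Snrpb2 (0.08 to 0.87), 0.38 for Srsf9 (-0.13 to 0.89) and 0.37 for Snrpf (-0.23 to 0.97). At 12 h they were 1.00 for Hnrnpll, which was called without IkL/L 12 h replicate 1 (1.59, adjusted p = 0.00614) as the array above the floor was then alone in its group, 0.68 for Srsf2 (0.03 to 1.34) and 0.53 for Snrpb2 (0.13 to 0.92). Intervals of this width do not show the genotypes to be alike.

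Averaged over the 3 conditions, Snrpb2 was higher in IkL/L cells by 0.41 ± 0.10 (limma adjusted p = 0.0453), the single member called where 6.08% of all genes were. This fit counts all arrays of a genotype as independent, although same-numbered ones deviated together. The SE and the adjusted p are therefore likely too small, and the share called too high. The 2 IkL/L arrays of Snrpb2 were above the 2 WT arrays in each condition. The call ended in 14 of 22 other settings, among them leaving out 10 of the 12 arrays singly (0.33 to 0.45, limma adjusted p from 0.0541 to 0.137). Without WT 12 h replicate 1, 3 members were called, Hnrnpab (0.34) and Srsf6 (0.38) with Snrpb2. Without WT replicate 1 in all conditions, the samples of the other sex, 3 were called as well, Snrpd3 (0.51, adjusted p = 0.0352) and Srsf6 (0.45, adjusted p = 0.0373) with Snrpb2, where all arrays gave 0.28 for both Snrpd3 and Srsf6. No member was then called for genotype within a condition. With the replicate block 7 members were called: Snrpb2, Snrpf (0.31), Snrpd3 (0.28), Hnrnpab (0.28) and Srsf6 (0.28) were higher and Hnrnpul1 (-0.28) and Hnrnpul2 (-0.27) lower in IkL/L cells. This block takes the spread between replicates of a genotype out of the error, although a genotype difference has to be judged against it. No genotype difference is therefore read from these 7 calls. The 3 marginal zone B cell markers summed to 19.07 to 21.43 over the WT groups and 20.43 to 23.28 over the IkL/L groups, and their part in these differences was not tested. At 12 h the WT and IkL/L means were 6.24 and 8.76 for Cd9, 5.75 and 5.82 for Cd1d1 and 8.14 and 8.11 for Dtx1, and at 3 h they were 9.03 and 7.94 for Dtx1.

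No member was shown to respond differently in the 2 genotypes. The difference between the genotypes' changes was called for no member at 3 h or 12 h (0 and 1 at an unadjusted p under 0.05), where 0.0385% and 0.022% of all genes were called. At 3 h the widest gaps, as IkL/L minus WT, were 0.44 for Srsf9 (95% interval -0.29 to 1.17), 0.38 for Hnrnpu (-0.35 to 1.11) and 0.37 for Hnrnph1 (-0.55 to 1.29). At 12 h they were 0.89 for Hnrnpll (-0.05 to 1.84), 0.78 for Hnrnph1 (-0.14 to 1.70) and 0.70 for Srsf2 (-0.23 to 1.63). Members called in 1 genotype alone, such as Hnrnpu and Snrpb2 in IkL/L cells or Snrpf in WT cells, are therefore not shown to differ in response. In both genotypes 9 members were called in the same direction at 3 h and 7 at 12 h, and none in opposite directions. Of all 18193 genes, 1371 rose and 1453 fell in both genotypes at 3 h, 1329 and 1091 did so at 12 h, and 1 was called in opposite directions at each time, so that nothing is read from the members' counts.

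The rest of the splicing machinery was read from lists of related genes. Of all genes, 9.15% rose and 10.2% fell in WT cells at 3 h, and 10.1% and 8.66% at 12 h. In IkL/L cells the shares were 9.82% and 10.6%, then 9.72% and 7.87%. Bright genes were called more often, as given above, and most list genes stood above the floor on all arrays. Nothing is read from list counts near these shares. Of 17 factors that assemble snRNPs, 9 rose and 1 fell in WT cells at 3 h, 7 and 1 at 12 h, and 10 and 1, then 9 and 0, in IkL/L cells, with medians of 0.67, 0.42, 0.60 and 0.69. With housekeeping scaling 8 and 5 rose in WT and 8 and 3 in IkL/L cells. Gemin5, which delivers small nuclear RNA to the SMN complex, rose by 2.06 in WT and 1.84 in IkL/L cells at 3 h (4.16-fold and 3.58-fold), and Prmt5, the methyltransferase that prepares Sm proteins for assembly, by 1.43 and 1.45. No setting ended these 4 calls. From 3 h to 12 h Gemin5 changed by -1.14 and -1.02, calls that ended without 3 h replicate 1 or 12 h replicate 1 in either genotype. Ncbp2, of the cap-binding complex, and Wdr77, the partner of Prmt5, rose by 1.10 and 0.95 in WT cells at 12 h. Prmt5 and Smn1 rose by 1.21 and 1.16 in IkL/L cells at 12 h, the call of Smn1 ending without any 1 of its 4 arrays.

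Of 10 Lsm proteins, which form the ring of the U6 snRNP and of a decay complex, 1 and 5 rose in WT and 4 and 5 in IkL/L cells at 3 h and 12 h, and none fell, with medians of 0.27, 0.52, 0.24 and 0.50. With housekeeping scaling 2 and 3 rose in WT and 2 and 1 in IkL/L cells, with medians of 0.29, 0.39, 0.27 and 0.22. Lsm7 rose by 1.01 and 1.05 in WT cells, against 0.74 and 0.74 in IkL/L cells, the last 2 calls ending without unstimulated replicate 1. Of 48 spliceosome core proteins, 12 rose and 2 fell in WT cells at 3 h, 7 and 4 at 12 h, and 13 and 3, then 10 and 4, in IkL/L cells, with medians of 0.29, 0.19, 0.30 and 0.24. With housekeeping scaling the 12 h counts were 4 higher and 4 lower in WT cells (median 0.06) and 1 higher and 7 lower in IkL/L cells, where the median turned to -0.05. Snrnp25 and Snrnp35, both of the U11/U12 particle that handles minor introns, went opposite ways at 3 h, Snrnp25 by -1.72 in WT and -1.82 in IkL/L cells and Snrnp35 by 1.31 and 1.42. Snrnp25 was also lower at 12 h, by -1.08 and -1.35. The WT calls of Lsm7 at both times, Snrnp35 at 3 h and Gemin5 from 3 h to 12 h ended without WT replicate 1 in all conditions.

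A list of 17 genes held SR kinases together with SR-related proteins. Of these, 1 rose and 2 fell in WT cells at 3 h, and 1 and 3 at 12 h. In IkL/L cells 3 and 2 did so, then 0 and 4. The medians were 0.00, -0.11, 0.15 and -0.16. Scaled to housekeeping genes, the 12 h medians were -0.23 and -0.45, with 3 and 5 lower and none higher. Clk1, a kinase of SR proteins, was lower by -0.83 and -1.02 in WT and by -1.10 and -1.18 in IkL/L cells. Srpk2, which phosphorylates SR proteins in the cytoplasm, changed by -1.12 and -1.05 at 3 h, calls that ended without unstimulated replicate 1 or 3 h replicate 1 of the same genotype. The WT 3 h calls of Clk1 and Srpk2 also ended without WT replicate 1 in all conditions. Of 29 other RNA-binding regulators, 4 rose and 6 fell in WT cells at 3 h, 3 and 7 at 12 h, and 5 and 3, then 5 and 6, in IkL/L cells, with medians of -0.11, 0.01, -0.02 and -0.01, the second and the third turning to -0.12 and 0.01 with housekeeping scaling. On that scale the IkL/L counts at 12 h were 3 higher and 10 lower (median -0.29) and those in WT cells 1 and 6. Syncrip, related to Hnrnpr, rose by 1.46 and 1.26 at 3 h and changed by -1.07 and -1.26 from 3 h to 12 h. Ptbp1, the polypyrimidine tract binding protein, rose by 1.75 (3.37-fold) in IkL/L cells at 12 h, and Mbnl1 changed by -1.08 there at 3 h. No setting ended these calls of Syncrip, Ptbp1 and Mbnl1.

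**Figure D5:**
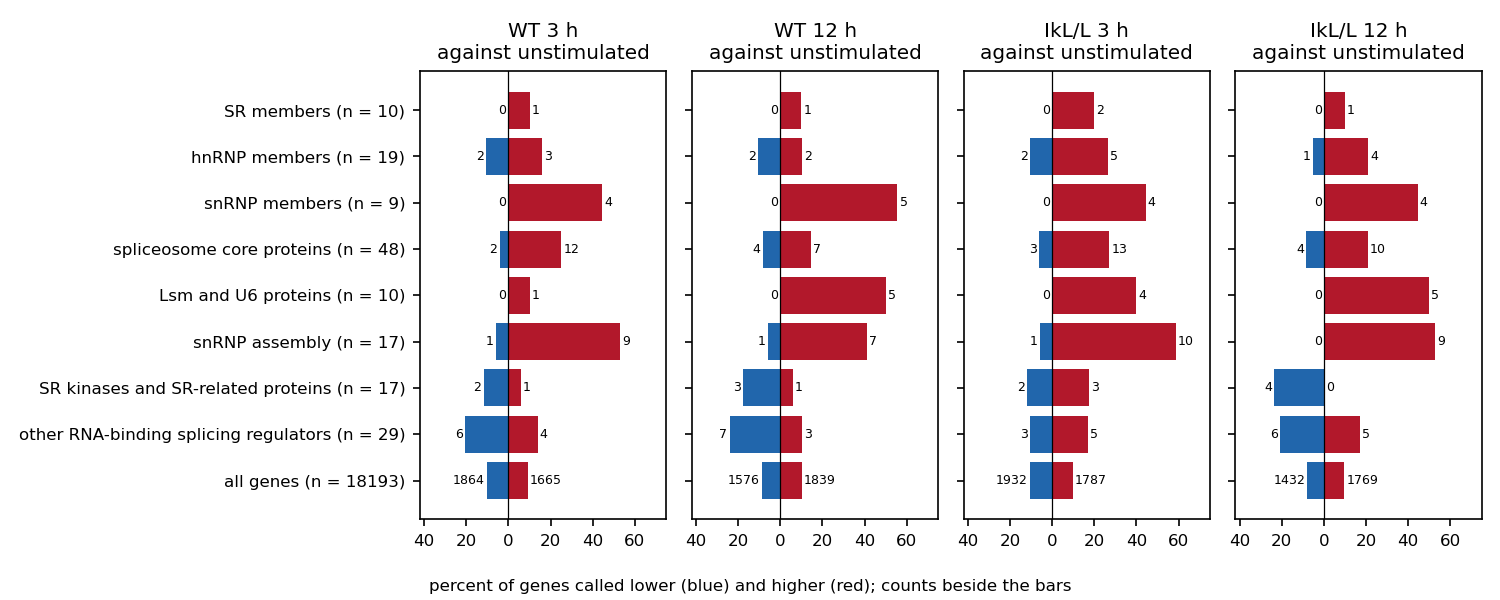
Share of genes called higher (red, right) and lower (blue, left) at 3 h and 12 h against unstimulated cells in each genotype, in percent, for the 3 families, 5 lists of other splicing genes and all 18193 genes, with counts beside the bars. The snRNP genes and the snRNP assembly list have 4 of 9 and 9 of 17 higher in WT cells at 3 h. The list of SR kinases and SR-related proteins has 4 of 17 lower in IkL/L cells at 12 h, a count from which nothing is read.

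No list gene was called for genotype within a condition or for the difference in response. Averaged over conditions, 7 of 121 list genes were called (5.79%, beside 6.08% of all genes). As for the members, this fit counts all arrays of a genotype as independent, so its adjusted p are likely too small. Snupn (0.50), Phax (0.49), Ddx20 (0.41), Snrnp27 (0.39) and Plrg1 (0.35) were higher in IkL/L cells, and Srpk2 (-0.62) and Mbnl1 (-0.31) lower, each with a limma adjusted p between 0.0139 and 0.0482. The call of Ddx20 ended in 3 of 22 other settings and the others in 10 to 17. Snupn and Phax, the import adaptor and the export factor of small nuclear RNAs, and Ddx20 of the SMN complex belong to the assembly list.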

How the data were processed

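RNA of 12 samples was labelled in 2 cycles and hybridised to an Affymetrix mouse array, per the labels' protocols. Values were deposited on a log2 scale after RMA, a tool the submitters' processing notes name without a version. RMA equalises the distribution of signals between arrays, so that a change in total RNA per cell is not measured. Of 45037 probe sets, 34945 carry 1 symbol in the platform annotation, 932 several and 9160 none. The brightest per gene gave 18193 genes, and 7 of the 38 chosen have a name with _s or _x, which marks probes shared between transcripts.

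The model held a mean for each of the 6 groups and took in all 12 arrays, using limma 3.58.1 (R 4.3.3; 6 residual and 3.95 prior degrees of freedom), with Benjamini-Hochberg adjustment over all genes of a comparison and a threshold of 0.05. With 2 arrays a group, an exact permutation test could not go below p = 0.333, the number of arrays limits the precision, and the p-values cover the spread among replicates, which may be technical in part. A floor of 4.21, 1 above the highest array median, was set after the values were seen. Same-numbered arrays of a genotype deviated together (r of 0.546 to 0.619 in WT and 0.354 to 0.49 in IkL/L cells over bright genes), those of different genotypes did not in all cases (0.026 to 0.31), so the numbers were taken to pair arrays within a genotype. The main fit held no term for this pairing, and the fits with a replicate block are given as alternatives. For a genotype difference averaged over conditions, the main fit counts paired arrays as independent. The block within genotype leaves the spread between replicates out of the error of any genotype difference. Members and lists were chosen with earlier results of these data known. Named were, per stimulation comparison, up to 6 members with the largest rise and 6 with the largest fall among those called, 3 with the largest difference where no genotype comparison was called, Srsf1, Srsf3, Srsf5, Hnrnpa1, Hnrnpl, Hnrnpll and Snrpn always, and 2 called genes per other list; further names were chosen after their values were seen. The fit was tested on simulated data. Alternatives were a replicate block, the mean of probe sets, a filter on dim genes, an intensity trend, housekeeping scaling and arrays left out.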

Additional observations from a re-analysis of the deposited data

Results flagged for a closer look

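Probe sets with several symbols were left out of the comparisons, and 6 of them carry a called change, 5 for relatives of the members and 1 for a member, Hnrnpa1. The probe set shared by Snrpd1, a subunit of the Sm ring, and Gm14277 was higher by 1.31 in WT cells at 3 h. It was also called higher in WT cells at 12 h (1.20) and in IkL/L cells at 3 h and 12 h (1.14 and 1.02). The probe set shared by Snrpa, the A protein of the U1 snRNP, with Gm21559 and Gm5161 was higher by 1.46 in WT cells at 3 h and by 1.21 at 12 h. In IkL/L cells it was called higher by 1.23 and 1.33. The probe set of Snrpd2, also of the ring, and Gm5848 was higher by 0.45 in WT cells at 3 h and by 1.20 at 12 h. In IkL/L cells it was called higher by 0.37 and 0.72. A probe set of Hnrnpa3 and Gm6793 was lower at 12 h against 3 h, by -0.97 in IkL/L and -0.53 in WT cells. Another of the same pair was higher at 3 h, by 0.66 in IkL/L and 0.52 in WT cells. A probe set of Hnrnpa1 with Gm10052, Hnrnpa1l2-ps2 and Gm5643 was higher at 12 h, by 0.79 in IkL/L and 0.69 in WT cells. The arrays cannot tell which of the named genes gave the signal.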

How the results depend on the processing

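Each count of members called was recomputed in up to 22 other settings. Of the called differences of members, those of Hnrnpd at 12 h changed sign, with the mean of all probe sets, which gave -0.04 in WT and -0.04 in IkL/L cells where its dim probe sets enter. With the replicate number as a block within genotype, the WT counts were 17 at 3 h, 16 at 12 h and 8 for 12 h against 3 h. The genotype counts were 1 in unstimulated cells and 7 on average, with the spread between replicates left out of their error. The block changed no other count by over 1.5 times. One replicate term for both genotypes gave 16 in WT cells at 3 h, 7 for 12 h against 3 h, 16 in IkL/L cells at 12 h and 2 for the average genotype difference. The mean of all probe sets gave 3 in WT and 6 in IkL/L cells for 12 h against 3 h, housekeeping scaling 3 and 5, and an intensity trend 2 in WT cells and 2 for the average genotype difference. Housekeeping scaling moved the share of called genes that were higher from 53.9% to 40.6% in WT and from 55.3% to 23.2% in IkL/L cells at 12 h. Leaving out 1 array gave 4 to 7 calls in WT cells at 3 h, 5 to 9 at 12 h and 0 to 5 for 12 h against 3 h, and in IkL/L cells 5 to 11, 4 to 11 and 0 to 3. Leaving out a replicate in all conditions of its genotype gave 3 and 3, 2 and 5, and 1 and 0 in WT, and 3 and 1, 3 and 2, and 1 and 0 in IkL/L cells. The genotype counts ranged from 0 to 1 at 12 h and from 0 to 3 on average, and were 0 in unstimulated cells, at 3 h and for both response differences. Where an array left out leaves 1 in its group, that array is assumed to vary like the other groups. The cause of these shifts was not tested, beyond the fewer samples fitted.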
